A study of Mus musculus with 8 samples.

Results

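The 5 genes of secreted type 2 products, Il4, Il5, Il13, Csf2 and Areg, were followed through CD45.2+ cells of the mouse brain. They were chosen by gene symbol and are 5 of the 32285 genes in the single-cell count matrices. Each was taken as unique molecular identifiers (UMIs, 1 per captured RNA molecule), as counts per 1000000 UMIs of a cell type (CPM), and as the share of cells with at least 1 UMI.

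The study asked how inflammation of the gut changes the immune cells of the brain in a model of amyloid deposition. WT C57BL/6J mice and App NL-G-F mice, which carry a humanized, mutated amyloid-beta sequence knocked into their own App gene, were compared. The labels give an age of 16 weeks for all 8 groups, 1 library per group. In each genotype there was a control group on water, an acute and a chronic colitis group given 2% dextran sulfate sodium (DSS) in drinking water, once or in repeated cycles, and a food allergy group that was sensitized with ovalbumin in alum and then fed ovalbumin. All brains were perfused before cells were sorted, and samples were stained with hashtag antibodies.

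IL-4, IL-5 and IL-13 drive antibody class switching, eosinophil growth and mucus production in allergy, and GM-CSF, the product of Csf2, supports myeloid cells. Amphiregulin, the product of Areg, is a ligand of the epidermal growth factor receptor linked to tissue repair. Group 2 innate lymphoid cells (ILC2) make these products without an antigen receptor when they meet alarmins such as IL-33. T helper cells, basophils and mast cells are the other classical sources, and ILC2 reside in the meninges that cover the brain.

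The 4 cytokine genes lie at 1 locus on mouse chromosome 11 (GRCm38), in a span of 646.7 kb. Il4 occupies chr11:53602982-53618669 on the minus strand and Il13 chr11:53631324-53634702 on the same strand, 12.7 kb apart. Rad50, a DNA repair gene that carries control elements of the cytokine genes, is at chr11:53649519-53707319. Il5 follows at chr11:53720794-53725106 on the plus strand, and Csf2 lies 522.2 kb further on at chr11:54247271-54249667 on the minus strand. Areg is on another chromosome, at chr5:91139599-91148432 on the plus strand. The 250 bases upstream of each gene start in RefSeq (GRCm38.p6) are shown because Il4 differed from the other members in the comparisons below. Capitals mark matches, on either strand, to the core of the NFAT site (GGAAA), to a GATA site (TGATAA or AGATAA) and to the cAMP response element (TGACGTCA). The last of these was added to the search after the sequences were seen.
Il4, chr11:53618666-53618915, minus strand: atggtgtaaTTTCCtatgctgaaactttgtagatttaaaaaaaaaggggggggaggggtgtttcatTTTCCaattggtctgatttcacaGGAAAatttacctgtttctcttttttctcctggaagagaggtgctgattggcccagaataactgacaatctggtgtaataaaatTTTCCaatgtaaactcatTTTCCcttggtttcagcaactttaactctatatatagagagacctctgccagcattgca
Il13, chr11:53634703-53634952, minus strand: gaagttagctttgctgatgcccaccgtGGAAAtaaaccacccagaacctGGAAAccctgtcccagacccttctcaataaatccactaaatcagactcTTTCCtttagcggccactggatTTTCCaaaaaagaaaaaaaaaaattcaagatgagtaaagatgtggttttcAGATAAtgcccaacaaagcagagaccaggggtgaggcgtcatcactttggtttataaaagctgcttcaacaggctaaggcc
Il5, chr11:53720544-53720793, plus strand: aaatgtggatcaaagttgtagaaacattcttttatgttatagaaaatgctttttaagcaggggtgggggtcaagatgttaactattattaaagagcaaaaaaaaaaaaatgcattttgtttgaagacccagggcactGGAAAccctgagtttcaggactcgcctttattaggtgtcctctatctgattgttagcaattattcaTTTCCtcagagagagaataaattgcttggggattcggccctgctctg
Csf2, chr11:54249900-54250149, minus strand: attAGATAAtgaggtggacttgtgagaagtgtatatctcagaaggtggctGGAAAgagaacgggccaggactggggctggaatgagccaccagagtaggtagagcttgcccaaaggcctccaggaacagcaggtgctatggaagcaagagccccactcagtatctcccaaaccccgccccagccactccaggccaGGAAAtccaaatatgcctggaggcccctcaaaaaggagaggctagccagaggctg
Areg, chr5:91139349-91139598, plus strand: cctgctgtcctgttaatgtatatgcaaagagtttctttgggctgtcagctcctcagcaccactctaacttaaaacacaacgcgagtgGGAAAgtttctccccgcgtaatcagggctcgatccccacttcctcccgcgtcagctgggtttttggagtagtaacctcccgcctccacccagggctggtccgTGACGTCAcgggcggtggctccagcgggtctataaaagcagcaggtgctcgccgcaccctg

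The Il4 window held 5 NFAT cores, Il13 held 4, Il5 and Csf2 held 2 each and Areg held 1. An NFAT core is common, with at least 1 in 55.57% of the 32851 RefSeq promoter windows. The Il13 and Csf2 windows each held 1 match to the GATA sequences searched (TGATAA or AGATAA), which 16.6% of all windows hold. Other forms of the GATA site were not searched, so the other windows are not shown to lack one. The Areg window alone of these held a cAMP response element, 61 to 54 bases before the start, and 1.55% of all windows hold one. The AP-1 site (TGANTCA, in 6.75% of windows) was in none of the 5. RefSeq lists a second Il4 start inside the gene, whose window held no match. The Csf2 start in RefSeq lies upstream of the end of the gene in the GENCODE annotation, so its window does not abut the interval given for the gene.

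After filtering there were 50085 cells, 4877 to 7199 per library, with a median of 2782 to 4130 UMIs per cell. They formed 31 clusters and 21 types, and 5 clusters with 3820 cells stayed unnamed. Any pair of libraries shared at most 72 cell barcodes, 1.251% of the cells of a library or less. ILC2 formed 1 cluster of 4446 cells in which all 8 fixed markers were found, among them Gata3 in 76.7% of cells and the IL-33 receptor gene Il1rl1 in 59.2%. The genes leading that cluster included Areg, so the level of Areg in ILC2 against other types is a description. Mast cells (307 cells, Cma1 in every cell), basophils (432 cells, Mcpt8 in 77.5%) and CD4 T cells (4880 cells, Cd4 in 29.7%) carried their markers as well. No cluster was named as eosinophils or as regulatory T cells. The genes leading the CD4 T cell cluster included Tnfrsf4 and Ctla4, which are in the marker list of regulatory T cells. Regulatory and other CD4 T cells were therefore not told apart.

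ILC2 were the main source of 4 of the 5 transcripts and the largest source of Il4. They were 4446 of 50085 cells and held 90.4% of the 573 Il5 UMIs, 73.9% of the 1006 Il13 UMIs, 64.1% of the 2326 Csf2 UMIs, 65.4% of the 12865 Areg UMIs and 45.4% of the 1978 Il4 UMIs. In level, Areg stood at 668 CPM in ILC2 (95% Poisson interval 654 to 682), Csf2 at 118 (112 to 124), Il4 at 71.3 (66.7 to 76.1), Il13 at 59.0 (54.8 to 63.4) and Il5 at 41.1 (37.7 to 44.8). These intervals cover counting error only. The reads come from the 5′ end of each transcript, 1 UMI per molecule, so these levels are in molecules and were not divided by gene length.

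Mast cells held more Il4 per UMI than any other type, and basophils came next. The level of Il4 was 256 CPM in mast cells (225 to 290), 110 CPM in basophils (97.9 to 124), 71.3 CPM in ILC2 and 15.0 CPM in CD4 T cells (13.1 to 17.2), an order in which no neighbouring intervals overlap. The types were drawn from different hashtag groups, split below by their level of immediate-early genes. Of the mast cells with 1 hashtag 203 were in the high set and 6 in the low set, and of the basophils 53 and 307. In the high set alone Il4 stood at 302 CPM in mast cells (260.1 to 349) and at 173 CPM in basophils (119.6 to 241, 34 UMIs). By library the level ran from 158 to 337 CPM in mast cells, from 92.8 to 144 in basophils, from 56.3 to 83.6 in ILC2 and from 13.2 to 25.8 in CD4 T cells. These 4 ranges do not overlap one another. In the next type, haematopoietic progenitors, Il4 stood at 4.64 CPM. At least 1 Il4 UMI was found in 44.3% of mast cells, 44.4% of basophils, 16.3% of ILC2 and 3.36% of CD4 T cells. After each cell was thinned to 1000 UMIs these shares were 24.0%, 15.0%, 6.60% and 1.37%.

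The other cytokines had fewer sources. Il13 was found in mast cells at 98.3 CPM (79.5 to 120) and in ILC2 at 59.0 CPM, and the ranges over libraries overlapped, 0 to 165 CPM against 9.98 to 120. No other named type exceeded 1.89 CPM for Il13, the value in basophils, which rested on 5 UMIs. Il5 came almost only from ILC2. Among the other named types its highest level was 0.420 CPM in CD4 T cells, from 6 UMIs. Mast cells and basophils had 0 Il5 UMIs, which allows a share of up to 0.977% of mast cells and 0.694% of basophils with a UMI (3 counts).

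Csf2 was shared with lymphocytes that carry other programmes. γδ T cells, which respond early at barrier tissues, had Csf2 at 39.0 CPM (34.3 to 44.2) and in 9.06% of cells, against 118 CPM and 9.65% in ILC2. At 1000 UMIs per cell the shares were 3.12% and 5.44%. NK cells followed at 13.1 CPM and CD4 T cells at 8.54 CPM. Mast cells had 0 Csf2 UMIs in 307 cells and basophils 1 in 432.

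Areg was the most abundant of the 5 outside ILC2 too. CD4 T cells had 81.6 CPM (77.0 to 86.4), γδ T cells 69.8 CPM (63.4 to 76.6), the mixed cluster of plasmacytoid and type 2 conventional dendritic cells 27.3 CPM, macrophages 26.7 CPM and NK cells 23.7 CPM. CD4 and γδ T cells do not differ beyond their spread over libraries, 32.0 to 190 CPM and 8.49 to 218 CPM. Mast cells, at 11.4 CPM, and basophils, at 3.77 CPM, were low for Areg although high for Il4. Most basophils were in the low set, where Areg stood at 0.487 CPM (1 UMI), and in the high set it stood at 20.3 CPM (5.53 to 52.0, 4 UMIs).

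A level for free RNA in the droplets was taken from B cells, which are not a source of these products. The 7116 B cells (median 2353 UMIs, against 2661 in ILC2) held 4 Il4, 0 Il5, 0 Il13, 3 Csf2 and 5 Areg UMIs. Their highest level was 0.269 CPM, for Areg, and at most 0.0562% of them held a UMI of any member. Barcodes below the cell threshold held the 5 transcripts at 31.5 CPM for Areg, 12.1 for Il4, 5.40 for Csf2, 4.13 for Il13 and 1.59 for Il5. The Areg levels of macrophages, NK cells and the mixed dendritic cluster were under the level of these barcodes but far over that of B cells, and the part of free RNA and of doublets in them was not tested. An unnamed cluster of 136 cells carried ILC2 markers, with several hashtags on 61.03% of its cells, and was kept out of ILC2. Areg stood at 383 CPM and Il5 at 37.1 CPM in it.

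**Figure D1:**
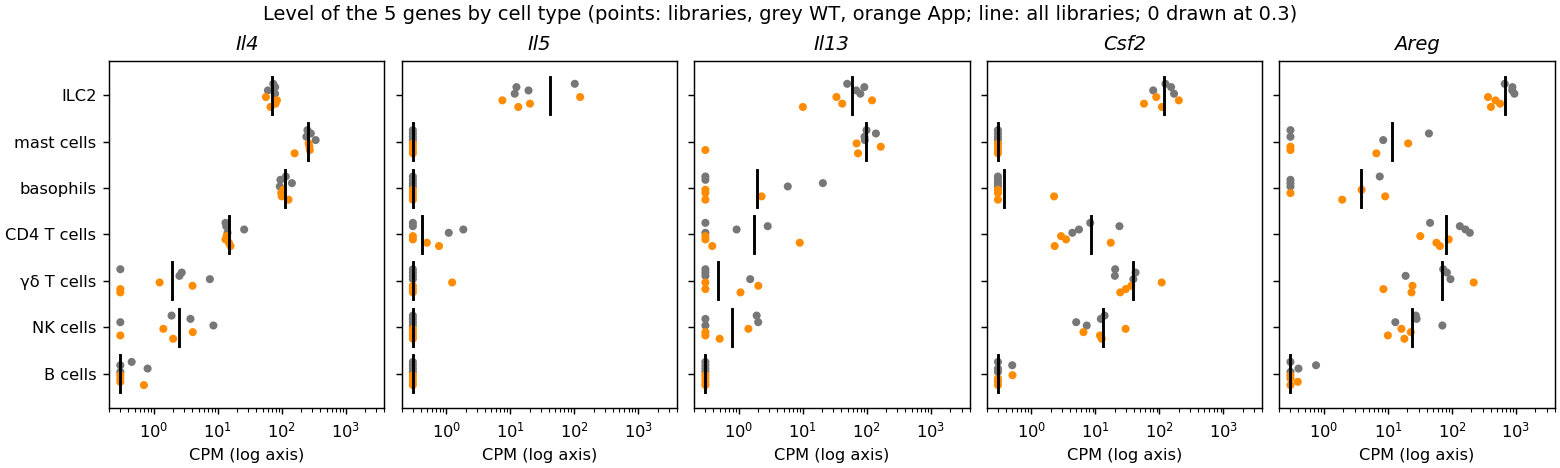
Level of the 5 genes (CPM, log axis) in 7 cell types. Points are the 8 libraries, grey for WT and orange for App NL-G-F, and the black line is the level over all libraries. Values of 0 are drawn at 0.3. Il4 runs highest in mast cells, Il5 is found in ILC2 with few UMIs elsewhere, and B cells lie at the lower edge for all 5.

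By likeness over the 21 types (Pearson r of log2(CPM + 10), 13334 genes compared), Il4 was nearest to Il1rl1 (r = 0.94), then Tuba8 and Lgals7. Il13 was nearest to Gm20627 (0.95), Il1rl1 (0.94) and Acer2 (0.92). Il5 was nearest to Dach2 (0.99), Pcsk1 (0.99) and Gm16271 (0.99), Csf2 to Gm6213 (0.96), Stab2 (0.95) and D630039A03Rik (0.95), and Areg to B3galt2 (0.91), Gata3 (0.91) and Tnfrsf10b (0.91). The points are types of the same 8 libraries, and for Il5 and Csf2 most of the likeness rests on ILC2 alone.

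Within ILC2 the 5 transcripts were spread over cells in very different ways. Il4 was thin and wide, found in 724 cells with 1 UMI in 84.7% of them. Il5 was the opposite. It was found in 124 cells, and the 10 richest cells held 47.9% of its 518 UMIs, against 33.0% for Il13, 16.4% for Csf2, 6.79% for Il4 and 5.62% for Areg. A share of 50% was reached with 11 cells for Il5, 26 for Il13, 56 for Csf2, 275 for Il4 and 286 for Areg. Positive cells held a mean of 1.24 UMIs of Il4, 3.38 of Il13, 3.47 of Csf2, 4.18 of Il5 and 4.29 of Areg. A single ILC2 of the App control library held 62 Il5 UMIs among its 1911 UMIs, and without it the Il5 level of that library would be 82.6 instead of 123 CPM.

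**Figure D2:**
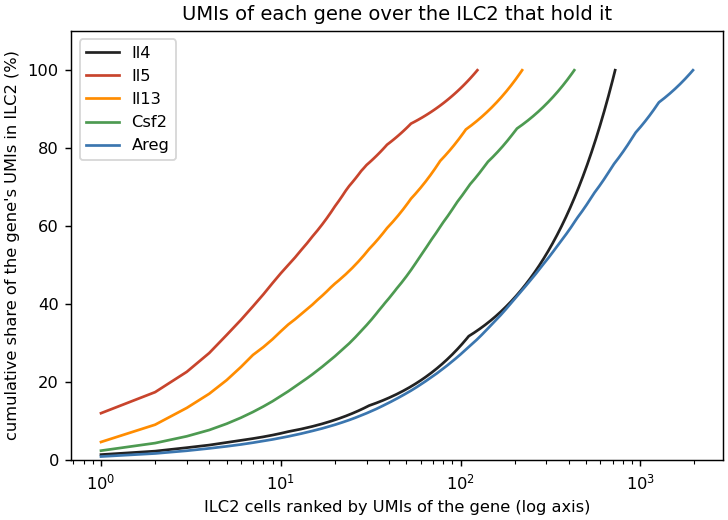
Cumulative share of the UMIs of each gene (y axis, percent) over the ILC2 that hold it, ranked by their UMIs of that gene (x axis, log scale). The Il5 curve rises first, with 47.9% of its UMIs in 10 cells, and the Il4 and Areg curves rise last.

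No ILC2 held all 5 transcripts. Of the 4446 ILC2, 42.5% held none, 41.1% held 1, 13.1% held 2, 2.68% held 3 and 0.607% held 4. Within the hashtag groups of high immediate-early level (the high set, 3569 cells, described with the groups), Il5 and Il13 were found together in 31 cells, where their separate frequencies give 6.40, a ratio of 4.84. The ratio was 2.84 for Il5 with Csf2 and 2.65 for Il13 with Csf2. For Il4 it was 0.95 with Il5, 1.22 with Csf2 and 1.501 with Il13. Cells with Il13 had a median of 3209 UMIs and those without 2536, so depth moves with these ratios and its part was not tested.

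The hashtags gave 30 groups of cells, 3 or 4 per library, and these are the unit of every test below. Neither the labels nor the methods tie a hashtag to a mouse, so the p-values measure the spread between hashtag groups, which may be animals or technical. The study names fewer mice for App chronic colitis than the hashtag groups in that library, so some of those groups may share a mouse. P-values of that comparison can then be too small. The fit over all conditions takes a common spread for each gene, so its other p-values can be too small as well. For App acute colitis the study names more mice than the hashtag groups found, so a group there may hold cells of several mice. Of the 30, 27 had at least 20 ILC2 and 28 at least 20 CD4 T cells. The groups fell apart on a measure that the labels do not name, and its link to the treatments was not tested. The summed level of 10 immediate-early genes (Btg2, Dusp1, Egr1, Fos, Fosb, Ier2, Jun, Junb, Nr4a1 and Zfp36), which cells switch on soon after a stimulus, was 613 to 1710 CPM in the T cells of 14 groups and 3328 to 6315 CPM in those of the other 16, the low set and the high set. Every library held groups of both sets. In WT acute colitis this rests on hashtags 6 and 7, with 154 and 60 cells above the lowest cutoff allowed, 50 counts. Hashtags 4 and 5 there had 2922 and 1775 cells above theirs. The same lowest cutoff made WT chronic colitis hashtag 4 (47 cells), App acute colitis hashtag 7 (4223) and App food allergy hashtag 6 (1270). The division was drawn after the data were seen, at the widest gap (1.95-fold), so the comparison of the sets is a description.

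Areg followed this division in ILC2 and Il4 did not. Areg in ILC2 ranged from 375 to 1314 CPM over the 16 high-set groups, with a median of 728, and from 10.5 to 283 over the 11 low-set groups, with a median of 38.0. The sets did not overlap, and in all 7 libraries with groups of both sets every high-set group lay above every low-set group. Of the 7470 genes tested in ILC2, 0.469% lay wholly above in the high set, and these included 8 of the 10 immediate-early genes measured in ILC2, for example Junb at 4721 to 10409 against 293 to 1836 CPM. The pooled level of Areg was 9.57 times higher in the high set, and Areg ranked 7 among the 7470 genes by log2 ratio (3.12, over all genes a median of -0.03). At 1000 UMIs per cell Areg was found in 34.1% of high-set and 4.81% of low-set ILC2, whose unthinned medians were 2559 and 3080 UMIs.

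Csf2, Il13 and Il5 leaned the same way with overlap. Csf2 in ILC2 ran from 59.5 to 325 CPM in the high set and from 0 to 110 in the low set, a pooled ratio of 5.22, with 10 of 16 high-set groups above every low-set group. Il13 ran from 11.9 to 255 against 0 to 99.2 CPM, a ratio of 4.29. Of its 34 UMIs in the low set, 26 were in 1 cell of App control hashtag 4, and without that group the ratio was 15.9. Il13 had no UMI in 7 of the 11 low-set groups. Il5 ran from 2.65 to 300 against 0 to 37.5 CPM, a ratio of 11.5 that rests on 9 UMIs in the low set. Il4 ran from 41.4 to 94.9 CPM in the high set and from 41.4 to 98.0 in the low set, a pooled ratio of 1.20, and at 1000 UMIs per cell it was found in 6.70% and 6.77% of cells.

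In CD4 T cells Areg was separated by the same division. It ranged from 33.0 to 268 CPM in the 16 high-set groups (915 UMIs) and from 0 to 5.27 in the 12 low-set groups (6 UMIs), apart in all 8 libraries. Of the 7107 genes tested in CD4 T cells, 0.352% lay wholly above, and Areg ranked 1 by log2 ratio (3.71). Il4 in CD4 T cells went the other way, from 1.41 to 22.5 CPM in the high set against 0 to 54.6 in the low set. Its pooled level was 0.406 times that of the low set, and its rank was 7088 of 7107.

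**Figure D3:**
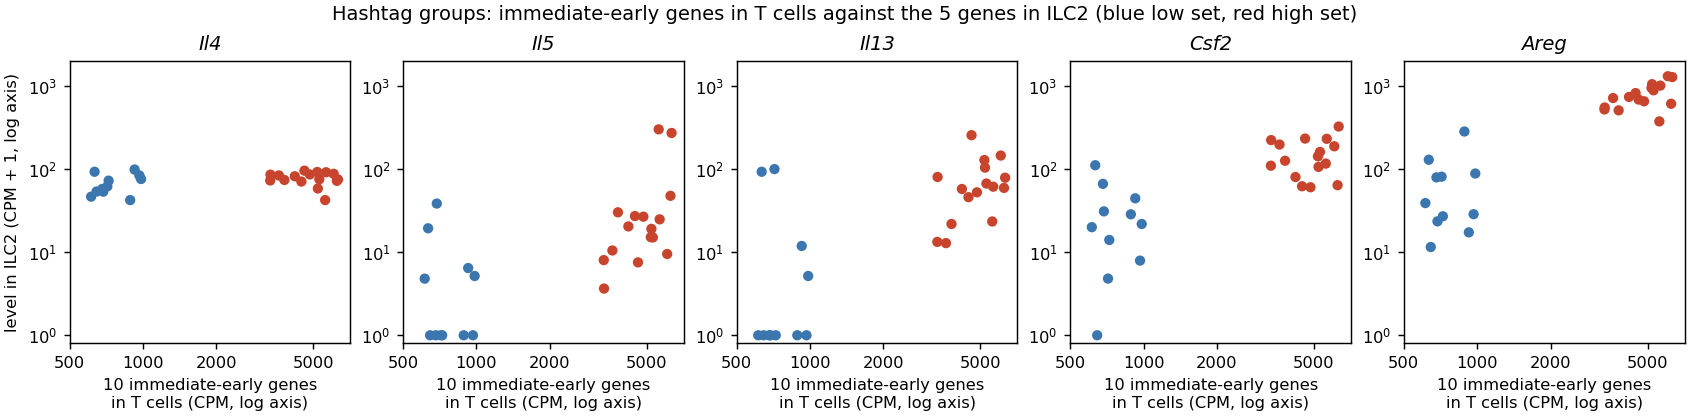
Level of each of the 5 genes in ILC2 (y axis, CPM + 1, log scale) against the summed level of 10 immediate-early genes in T cells of the same hashtag group (x axis, CPM, log scale), 27 groups with at least 20 ILC2, blue low set and red high set. Areg is separated between the sets (10.5 to 283 against 375 to 1314 CPM). Il4 spans 41.4 to 98.0 CPM in the low set and 41.4 to 94.9 CPM in the high set.

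Over the 27 groups, the genes whose ILC2 level was most like Areg were Nfkbid (r = 0.95), Nr4a1 (0.95) and Ppp1r15a (0.94), and for Csf2 they were Bhlhe40 (0.84), Cxcl2 (0.84) and Areg itself (0.82). Il13 was most like Cdk11b (0.77), Jund (0.76) and Sub1 (0.76), and Il5 most like Dgat1 (0.79), Tfip11 (0.78) and Thada (0.78). Il4 had no close companion, with Eif4e3 (0.64), Atp6v1f (0.63) and Usp25 (0.62) nearest. Groups of 1 library share its depth and free RNA, and 6029 genes were compared.

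Food allergy is the classical setting for these cytokines, and the first question was whether their level in brain ILC2 changed with it. No member was called in either genotype by edgeR's quasi-likelihood test at an adjusted p under 0.05 over 7470 genes. In WT, 1.53% of all genes were called and 0 of 5 members. Under an unadjusted p of 0.05 were 1 member (Il5) and 861 of the 7470 genes. In App NL-G-F, 0.0268% of genes were called and 0 of 5 members. Il5 alone of the members was again under 0.05 unadjusted, beside 546 of the 7470 genes. DESeq2 also called 0 members in both. In an exact two-sided permutation test of the group means of log2(CPM + 10), no member reached 0.05 in ILC2, where the smallest p the design allows is 0.0286.

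Il4 in ILC2 was the steadiest. It stood at 98.0, 75.1, 71.3 and 74.1 CPM in the 4 WT control groups (hashtags 4 to 7) and at 90.8, 86.9 and 41.4 CPM in the 3 WT food allergy groups (hashtags 4, 5 and 7). In App NL-G-F it was 61.0, 92.0, 72.1 and 41.4 CPM in control and 83.1, 73.0, 45.6 and 56.8 CPM in food allergy. The groups overlap in both genotypes. The log2 change was 0.15 ± 0.22 (SE) in WT, adjusted p = 0.873, with a 95% interval of -0.30 to 0.61. It was 0.24 ± 0.24 in App NL-G-F, adjusted p = 0.854, with an interval of -0.25 to 0.73, so a log2 change of 1 in either direction lies outside both intervals.

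The Il5 estimate for food allergy was negative in both genotypes, was not called with the count filter, and in both rested on 1 control group. WT control stood at 5.45, 4.17, 46.8 and 272 CPM and WT food allergy at 23.9, 8.52 and 0 CPM. App control stood at 0, 18.4, 7.04 and 300 CPM and App food allergy at 9.49, 29.2, 3.80 and 0 CPM. Hashtag 7 of each control is the high value, and the groups otherwise overlap. The log2 change was -2.77 ± 1.09 in WT (adjusted p = 0.281) and -2.95 ± 1.07 in App NL-G-F (adjusted p = 0.560). Without the count filter edgeR called it in both genotypes, at -2.77 and -2.96, beside 242 (WT) and 65 (App NL-G-F) of all 15623 genes. Without hashtag 7 of the WT control it was -1.004, and without hashtag 7 of the App control the App NL-G-F change turned to 1.29.

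Il13 gave estimates of opposite sign in the 2 genotypes and was called in neither with the count filter. In WT it stood at 10.9, 4.17, 58.5 and 77.9 CPM in control and at 60.5, 145 and 0 CPM in food allergy, a log2 change of 0.81 ± 0.74 (adjusted p = 0.760). In App NL-G-F it stood at 99.2, 92.0, 12.3 and 22.4 CPM in control and at 11.9, 20.9, 0 and 0 CPM in food allergy, a log2 change of -1.75 ± 1.20 (adjusted p = 0.769). The 99.2 CPM came from 26 UMIs in 1 cell of 84, and the 92.0 CPM from 5 UMIs in 1 cell of 21, both in low-set groups. In the high-set groups the levels were 12.3 and 22.4 CPM in control and 11.9 and 20.9 CPM in food allergy, with Il13 in 1.98% and 1.49% of control cells and 3.16% and 4.24% of food allergy cells. All 4 App food allergy groups were under 21 CPM and 1 App control group was below the highest of them. The exact permutation p for App NL-G-F was 0.0571. The difference between the genotypes was -2.55 ± 1.40 in log2 (adjusted p = 0.993 by edgeR). Without the count filter edgeR called the App NL-G-F change (-1.76) and the difference between the genotypes (-2.56), and those 2 cells of the App control enter both. That fit called 65 of all 15623 genes for App NL-G-F food allergy, and no such count is given for the difference.

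Csf2 stood at 43.6, 20.9, 63.1 and 325 CPM in WT control and at 231, 187 and 27.6 CPM in WT food allergy. In App NL-G-F it stood at 3.81, 110, 109 and 116 CPM in control and at 197, 125, 19.0 and 65.5 CPM in food allergy. Both comparisons overlap. The log2 change was 0.44 ± 0.66 in WT (adjusted p = 0.878) and 0.40 ± 0.71 in App NL-G-F (adjusted p = 0.931).

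Areg in ILC2 stood at 16.3, 87.6, 612 and 1283 CPM in WT control and at 1013, 1314 and 283 CPM in WT food allergy. In App NL-G-F it stood at 80.1, 129, 522 and 375 CPM in control and at 717, 509, 38.0 and 78.6 CPM in food allergy. The span within each condition exceeded the difference between the condition means. The log2 change was 0.88 ± 0.98 in WT (adjusted p = 0.824) and 0.29 ± 0.96 in App NL-G-F (adjusted p = 0.977). With the immediate-early set as a term of the fit no member was called in ILC2 for food allergy in either genotype.

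The difference of the food allergy effect between the genotypes called 0 of 5 members in ILC2 (0.375% of genes, 0 members under an unadjusted p of 0.05, 0 by DESeq2). Its log2 value was 0.09 ± 0.33 for Il4, -0.18 ± 1.78 for Il5, -0.04 ± 0.98 for Csf2 and -0.59 ± 1.38 for Areg.

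**Figure D4:**
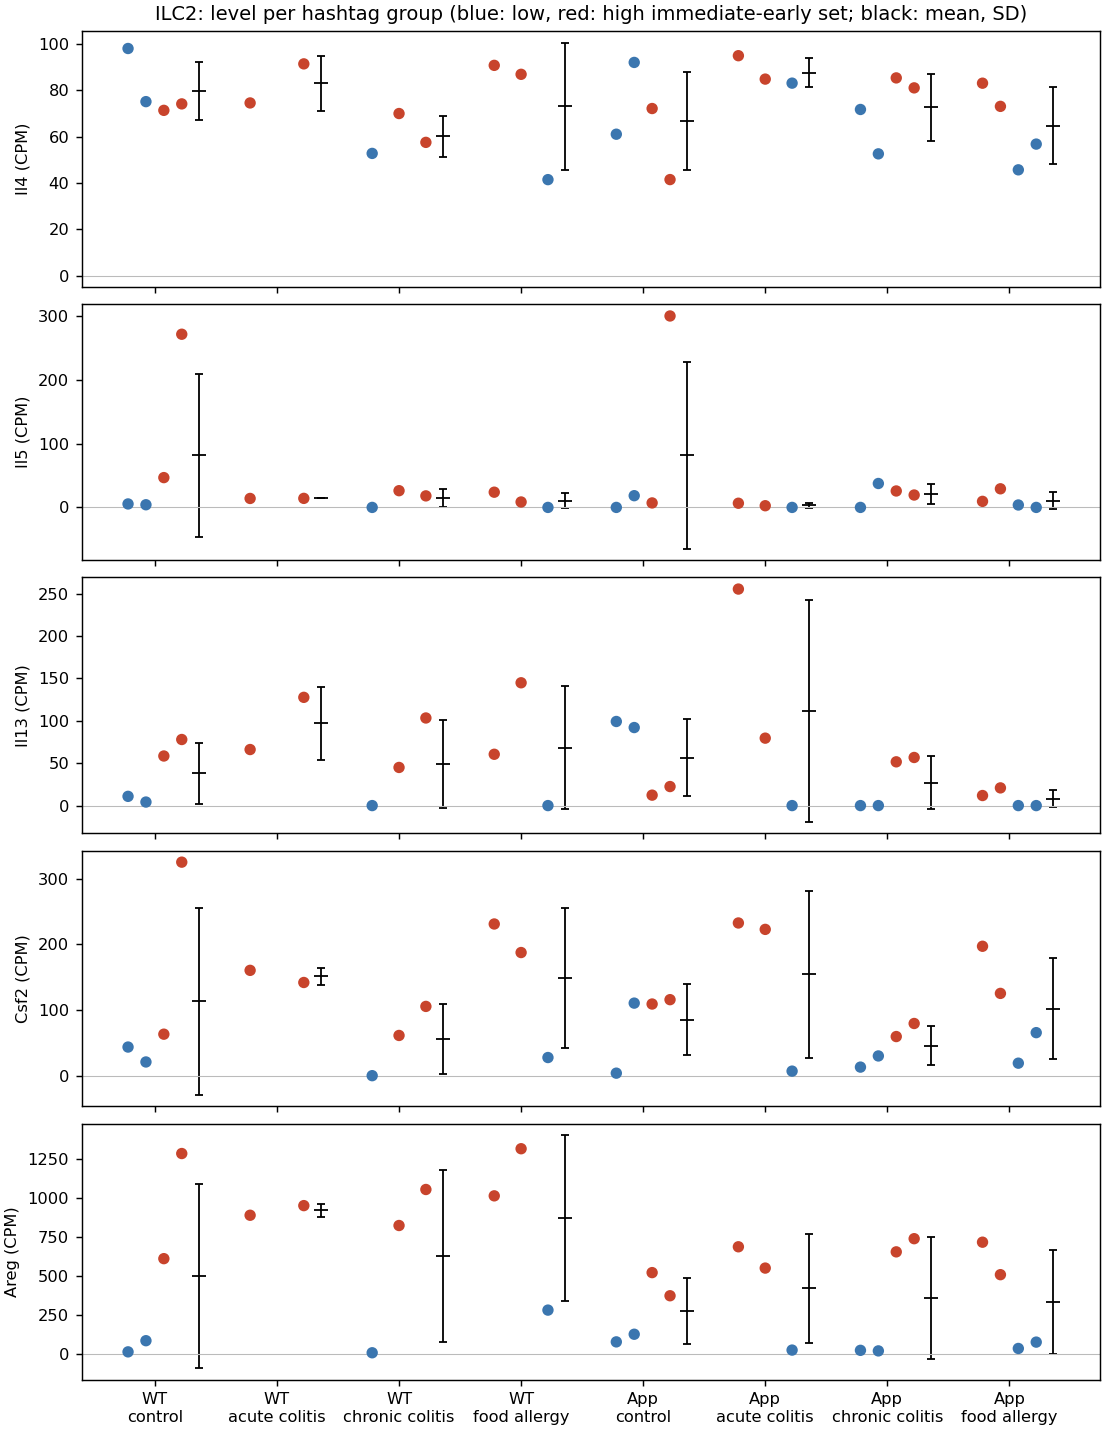
Level of the 5 genes in ILC2 (y axis, CPM) in each hashtag group with at least 20 ILC2, by condition, blue low set and red high set, with the mean and SD of the groups in black. The 2 highest Il5 points, 272 and 300 CPM, are hashtag 7 of the WT and of the App control.

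CD4 T cells were tested for Il4 and Areg, since Il5, Il13 and Csf2 did not pass the count filter there (6, 25 and 122 UMIs). In the WT comparison 1.77% of 7107 genes were called and 0 of these 2 members, with 0 under an unadjusted p of 0.05 and 0 by DESeq2. In App NL-G-F the figures were 0.113%, 0, 0 and 0, and for the difference between genotypes 1.03%, 0, 0 and 0. Of all 7107 genes, 635 (WT) and 411 (App NL-G-F) were under an unadjusted p of 0.05 for food allergy. The log2 change of Il4 was 0.40 ± 0.90 in WT (adjusted p = 0.948) and 0.35 ± 0.68 in App NL-G-F (adjusted p = 0.995).

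For food allergy, Areg in CD4 T cells of WT was the 1 member value called with the immediate-early set as a term. It stood at 0, 0, 98.2 and 33.0 CPM in WT control, the first 2 of the low set, and at 242, 252 and 5.27 CPM in WT food allergy, the last of the low set. Within each set the food allergy groups were above the control groups, in the low set by 1 UMI against 0. The log2 change was 2.55 ± 1.30 without the set (adjusted p = 0.583) and 1.98 with it (adjusted p = 0.00106). Over all alternatives the adjusted p ran from 7.39e-22, without a count filter, to 0.880. No share of all genes called is given for the fit with the set or without the filter. Neither call is therefore read as a result about Areg. The sets were drawn after the data were seen, on T cells that include these CD4 T cells. In App NL-G-F the levels were 1.02, 3.94, 79.6 and 72.6 CPM in control and 52.3, 219, 0 and 1.43 CPM in food allergy, and the groups overlapped within both sets. The log2 change there was 0.76 ± 1.27 (adjusted p = 0.995), and the difference between the genotypes was -1.79 ± 1.85 (adjusted p = 0.952), or -1.26 with the set as a term (adjusted p = 0.559).

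Mast cells and basophils were too few for a test by hashtag group, and each library gives 1 value. In mast cells Il4 stood at 251 CPM in WT control (28 UMIs, interval 167 to 363) and at 337 CPM in WT food allergy (40 UMIs, 241 to 459). It stood at 262 CPM in App control (185 to 360) and at 158 CPM in App food allergy (101 to 235). In basophils Il4 stood at 115 and 92.8 CPM in WT and at 105 and 127 CPM in App NL-G-F, control first. Within each genotype the intervals of food allergy and control overlapped in both types. Il13 in mast cells was 98.6 and 92.7 CPM in WT and 68.9 and 72.5 CPM in App NL-G-F, in the same order.

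γδ T cells of the App control stood out for both of their products. Csf2 was 108 CPM there and 20.1 to 42.3 CPM in the other 7 libraries, and Areg was 218 CPM against 8.49 to 94.7. Most of it came from hashtag 7, with Csf2 at 215 CPM and Areg at 516 CPM in 90 cells. Few cells weigh on these levels. Over all libraries the 10 richest γδ T cells held 59.5% of the 442 Areg UMIs and 32.8% of the 247 Csf2 UMIs. Hashtag 7 of the App control is the group with the highest Il5 in ILC2.

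Colitis, the other gut treatment, was tested in ILC2 in the same way. Against the control of the same genotype, 0 of 5 members were called in WT acute colitis (1.67% of genes), App acute colitis (0.0669%), WT chronic colitis (2.2%) and App chronic colitis (0.0402%). The members under an unadjusted p of 0.05 numbered 1, 3, 1 and 1, Il5 in each and Il4 and Il13 in App acute colitis too. DESeq2 called 0. The number of all genes under that p was counted for food allergy against control only. The Il5 change was -2.65 ± 1.15, -4.78 ± 1.67, -2.10 ± 0.98 and -2.32 ± 0.99 in log2, in the same order. All 4 comparisons and those of food allergy share the control groups, including both hashtag 7 groups. With the immediate-early set as a term, Il5 in WT acute colitis was called (-3.21, adjusted p = 0.0414, over all alternatives 1.19e-11 to 0.947), and Csf2 there turned to -0.16. No share of all genes called is given for that fit in WT acute colitis, so the call is not read as a result about Il5. Both WT acute colitis groups with at least 20 ILC2 were of the high set, against 2 high-set and 2 low-set WT control groups. Without the count filter further members were called. Of all 15623 genes that fit called 259 (WT) and 29 (App NL-G-F) in acute colitis and 284 and 40 in chronic colitis. In App acute colitis the log2 change was 1.77 ± 0.83 for Il13 (adjusted p = 0.884) and 0.61 ± 0.26 for Il4 (adjusted p = 0.834). App control against WT control called 1.58% of genes and 0 members (0 unadjusted, 0 by DESeq2), with changes from -0.74 ± 0.96 for Areg to 0.23 ± 0.73 for Il5.

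**Figure D5:**
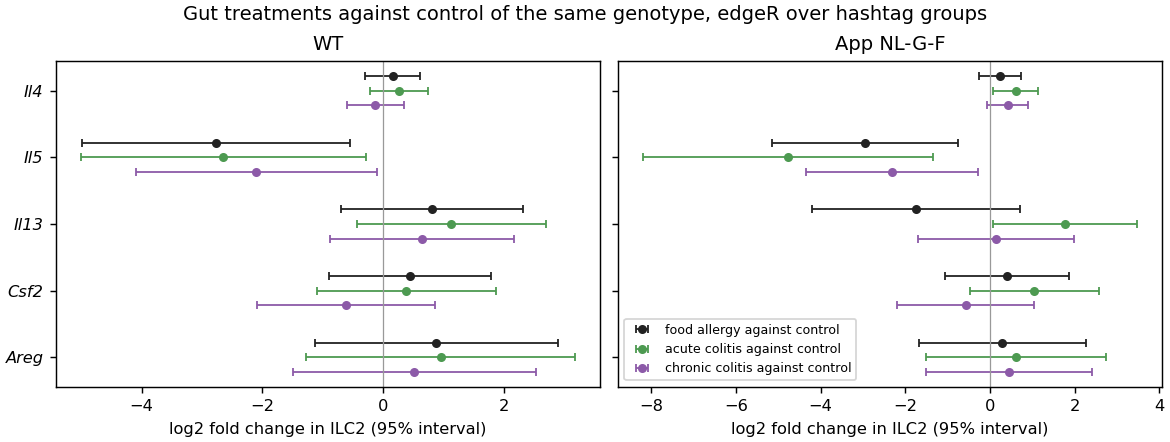
Log2 fold change in ILC2 with its 95% interval for each of the 5 genes, 3 gut treatments against the control of the same genotype, WT on the left and App NL-G-F on the right (edgeR over 27 hashtag groups). All 6 Il5 values lie under 0, from -2.10 to -4.78, and share the 2 control groups with high Il5.

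Il5-rich ILC2 were gathered in the hashtag 7 groups of both controls. Of 28 ILC2 with at least 5 Il5 UMIs, 19 were in hashtag 7 of the 2 controls. The 28 cells held 384 Il5 UMIs in all, and none shared a barcode with another. Il13 was found in 11 of the 28, Csf2 in 12, Areg in 20 and Il4 in 4. The 2 hashtag 7 groups were set beside the 14 other high-set groups after their Il5 was seen, so what follows has no test. Of the 7470 genes, 5.21% lay above all 14 others in both groups and 4.78% below. Of the 56 listed genes measured, 10 lay above and 6 below.

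Among 11 activating receptors 2 lay above and 3 below, and among 16 transcription factors 5 lay above and 2 below. Icos, a costimulatory receptor, stood at 811 CPM in the WT and 426 CPM in the App group, against 158 to 330 CPM in the others. Tnfrsf18, which encodes the receptor GITR, stood at 1346 and 1079 against 276 to 856 CPM, and Il4ra at 186 and 128 against 39.2 to 83.0 CPM. Among transcription factors, Rora stood at 633 and 565 against 131 to 312 CPM, and Nfkb1 at 1450 and 1245 against 498 to 1104 CPM. Id2 lay below at 399 and 278 against 408 to 736 CPM, as did Bcl11b at 45.6 and 27.6 against 45.9 to 117 CPM. Calca, the gene of the neuropeptide CGRP, stood at 6517 and 6982 against 87.5 to 3998 CPM. Nmur1, the receptor for the neuropeptide neuromedin U, lay below, at 32.3 and 51.8 against 94.7 to 157 CPM, as did Il9r at 20.9 and 31.1 against 52.2 to 102 CPM. The low-set groups, not among those others, came near or passed several of these values. Their highest was 12184 CPM for Calca, 616 for Rora and 138 for Il4ra. Their lowest was 132 CPM for Id2, 34.6 for Bcl11b, 13.8 for Nmur1 and 27.7 for Il9r. For Icos, Tnfrsf18 and Nfkb1 the highest low-set values, 360, 1004 and 969 CPM, lay below both hashtag 7 groups.

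The other genes of the pathway were measured from fixed lists, in the order of their roles. None was called in ILC2 for food allergy in either genotype. Of 9 alarmins and other activating ligands only Il2 passed the filter (61.5 CPM), and Il33 had 1 UMI in the hashtag groups of ILC2. Of 13 activating receptors 11 passed, led by the IL-7 receptor gene Il7r (1462 CPM), Tnfrsf18 (551), Il2ra (423) and Il1rl1 (378), with a median log2 change of 0.13 for WT and 0.07 for App NL-G-F, beside -0.02 and 0.00 for all genes. Of 17 transcription factors 16 passed, led by Nfkb1 (779 CPM), Gata3 (661), Id2 (511) and Ets1 (338), with medians of -0.25 and -0.02.

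Of 9 other effectors 5 passed, led by Calca (1524 CPM), Ccl1 (86.0), Tnf (33.8) and Lif (19.2), with medians of 1.18 and 0.81. The members went both ways, with Calca at -2.92 and -2.73 and Tnf at -1.05 and 2.00 in log2 (WT, then App NL-G-F), none of them called. Of 9 receptors for the 5 products 3 passed, Il2rg (1034 CPM), Il4ra (66.6) and Csf2ra (21.9). At the cytokine locus 4 of 7 neighbours passed, Irf1 (128 CPM), Rad50 (72.9), P4ha2 (17.7) and Kif3a (11.6). None of the 7 other EGF family ligands passed, so Areg was the only ligand of that family at a testable level in ILC2. Of 9 genes of mRNA decay and shedding 7 passed, led by Zfp36l1 (2178 CPM), which encodes a protein that destabilizes AU-rich cytokine transcripts. It lay wholly higher in the high set, 1776 to 3852 against 852 to 1551 CPM, as did Zfp36, which is also among the 10 genes that drew the sets, and the medians of that list were -0.22 and -0.09. In CD4 T cells 1 of 51 listed genes tested was called, 1.96% beside 1.77% of all genes, the leukotriene receptor gene Cysltr1, with a log2 change of 3.24 ± 0.68 in WT (adjusted p = 0.00406) on 75 UMIs in all, and it was called lower in the difference between genotypes (1.03% of all genes). In colitis 1 of 56 listed genes was called in ILC2 of WT acute colitis (Ccl1, higher) and 1 of 56 in WT chronic colitis (Stat6, lower), 1.79% each beside 1.67% and 2.2% of all genes. These shares are near the background.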

How the data were processed

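The members, gene lists and comparisons were chosen with earlier results of these data known. The authors deposited raw UMI counts per gene and barcode for 8 libraries of CD45.2+ brain cells, made with Cell Ranger 6.1.2 on mm10 (GENCODE vM21 was used here for coordinates). Cells were called against ambient RNA above 500 UMIs at an FDR of 0.01, kept if 200 or more genes were found and mitochondrial UMIs did not exceed 5%, clustered (Leiden, resolution 0.5, the members and 10 immediate-early genes left out of the variable genes) and named by at least 3 fixed markers. Doublets were treated through hashtags only: cells with several (4674) or none (1503) stayed in the levels and were left out of the tests. Counts were summed per hashtag group with at least 20 cells of a type and fitted over 8 conditions with edgeR 4.0.16 (filterByExpr, TMM, quasi-likelihood test, Benjamini-Hochberg adjustment), and DESeq2 1.42.0 was an alternative. The marker gate for CD4 T cells, another alternative, was loosened after its cell counts were seen. Intervals are exact Poisson or Clopper-Pearson at 95%. The members, up to 4 genes per list by CPM in ILC2, any listed gene called and the 3 genes most like each member are named. Depth was 26988646 to 56307389 UMIs per library. On counts simulated for WT food allergy in ILC2 (7470 genes, dispersion 0.1), the fit called 76 of 100 genes changed by 2 on the log2 scale. It called 91 of 100 changed by 3, with 4 false calls. The simulation gave every gene the same dispersion and no low or high set. Its recovery therefore does not apply to members such as Areg, which differed widely between groups of 1 condition.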

Additional observations from a re-analysis of the deposited data

Results flagged for a closer look

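Of 36 sets of 4 groups that could be tested for a group far from the rest, 9 had one. Chance gives about 1 in 20 for values with a roughly normal spread, a rate that does not apply to the 4 sets of CD4 T cells in which all other groups were at 0. In ILC2 of the WT control, hashtag 7 was far above the others for Il5 (272 CPM, the others 4.17 to 46.8) and for Csf2 (325 CPM, the others 20.9 to 63.1). Hashtag 4 of that library was above for Il4, 98.0 CPM against 71.3 to 75.1, on 18 UMIs. In the App control, hashtag 7 was far above for Il5 (300.4 CPM, the others 0 to 18.4) and hashtag 4 far below for Csf2, at 3.81 CPM from 1 UMI. In CD4 T cells the 4 flags rest on few UMIs. Il5 stood at 4.06 CPM (1 UMI) in App chronic colitis hashtag 6 and at 4.43 CPM (2 UMIs) in App food allergy hashtag 5, with 0 in the other groups of each. Il13 stood at 19.8 CPM (14 UMIs) in App chronic colitis hashtag 5 and at 2.22 CPM (1 UMI) in App food allergy hashtag 5, with 0 elsewhere in the library.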

How the results depend on the processing

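Alternatives for the colitis comparisons, for App control against WT control and for the difference between genotypes were chosen after the data were seen. Of 923 values under alternatives 757 kept their direction and side of the threshold or moved less than their error. No paired analysis was possible because the labels give no replicate numbers and hashtag numbers are not stated to pair samples. Low counts limit Il5 and Il13 in low-set groups, where most values are 0.

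Without a count filter edgeR took the spread of each gene wholly from the trend over genes of like level, and adjusted p-values shrank. Its prior degrees of freedom rose from 10.1 on 7470 genes to infinity on 15623 in ILC2. In CD4 T cells they rose from 10.2 on 7107 genes to infinity on 16159. Of the 15623 genes in ILC2, 242 (WT) and 65 (App NL-G-F) were called without the filter for food allergy. Acute colitis gave 259 and 29 calls, and chronic colitis 284 and 40. Of the 16159 genes in CD4 T cells, 46 were called for App NL-G-F food allergy. No such count is given for the difference between genotypes, App control against WT control or WT food allergy in CD4 T cells. Members passed at log2 changes near those reported: for food allergy in ILC2 Il5 (-2.77 and -2.96, WT then App NL-G-F), Areg in WT (0.86) and Il13 in App NL-G-F (-1.76), for acute colitis Il5 (-2.66 and -4.81), Il13 (1.13 and 1.73), Areg in WT (0.94) and Csf2 in App NL-G-F (1.01), for chronic colitis Il5 (-2.11 and -2.33), for App control against WT control Areg (-0.76), for the difference between genotypes Il13 in ILC2 (-2.56) and Areg in CD4 T cells (-1.75), and for WT food allergy Areg in CD4 T cells (2.52). None of these passed in the filtered fit over the 8 conditions, by edgeR or by DESeq2.

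With the immediate-early set as a term, Areg in CD4 T cells with WT food allergy passed (1.98), as did Il5 in ILC2 with WT acute colitis (-3.21, adjusted p = 0.0414). No share of all genes called is given beside these calls. The sign turned for the genotype difference of Il5 (0.22) and Csf2 (0.40) and for Csf2 in WT acute colitis (-0.16), and App acute colitis gave 10 calls. DESeq2 gave 2 calls there, and turned Il13 in App chronic colitis (-0.92) and in App control against WT control (0.57). The mean of log2(CPM + 10) turned Il4 with food allergy in both genotypes (-0.16 and -0.023) and Areg in App NL-G-F (-0.17). A gate on marker UMIs in place of clusters turned Il4 in App NL-G-F (-0.12) and gave 59 and 0 calls for food allergy in ILC2 and 66 and 0 in CD4 T cells. With only the 2 conditions in the fit there were 46 and 0 calls in ILC2 and 5 for App NL-G-F in CD4 T cells, and with at least 50 cells per group 1 call for App NL-G-F in ILC2. The cause was not tested.

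Leaving out 1 hashtag group at a time changed no call of a member and gave these ranges, in which the highest Il5 value of each treatment comparison came without hashtag 7 of its control. For food allergy in ILC2 they were -0.20 to 1.22 for Il13 in WT (negative without WT food allergy hashtag 5), and in App NL-G-F -4.22 to 1.29 for Il5, -0.10 to 0.70 for Csf2 and -0.35 to 0.73 for Areg (both lowest without food allergy hashtag 4) and 0 to 2 calls. For the difference between genotypes they were -0.13 to 0.24 for Il4, -1.96 to 4.06 for Il5 and -1.48 to 0.35 for Csf2. In WT chronic colitis they were -0.20 to 1.06 for Il13, -1.21 to 0.81 for Csf2, -0.0095 to 1.54 for Areg and 103 to 164 calls, and in App chronic colitis -2.85 to 1.92 for Il5, -0.40 to 0.97 for Il13, -0.11 to 0.90 for Areg and 0 to 3 calls. Acute colitis gave 66 to 130 calls (WT) and 2 to 7 (App NL-G-F). App control against WT control gave -4.03 to 2.00 for Il5, -1.11 to 0.26 for Il13, -0.80 to 0.94 for Csf2 and -1.20 to 0.29 for Areg. In CD4 T cells food allergy gave -0.59 to 1.11 for Il4 in WT, -0.17 to 1.47 for Il4 and -0.93 to 1.51 for Areg in App NL-G-F with 4 to 9 calls, and -0.76 to 1.08 for Il4 in the difference between genotypes.

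Levels over the 8 libraries moved as follows. The marker gate gave 59.0 CPM for Il5, 68.5 for Il13, 108 for Csf2 and 712 for Areg in ILC2, 61.7 for Areg in CD4 T cells and 72.6 for Csf2 in γδ T cells. The mean over hashtag groups gave 29.8 CPM for Il5, 46.7 for Il13, 92.5 for Csf2 and 452 for Areg in ILC2. Cells with 1 hashtag gave 294 CPM for Il4 in mast cells and 71.1 for Areg in CD4 T cells, where every barcode with at least 500 UMIs gave 107 and resolution 1.0 gave 108. Thinned to 1000 UMIs, the shares fell to 6.60% for Il4, 1.55% for Il5, 2.65% for Il13, 5.44% for Csf2 and 29.3% for Areg in ILC2, 24.0% and 15.0% for Il4 in mast cells and basophils, 3.75% for Areg in CD4 T cells and 3.12% for Csf2 in γδ T cells.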
